A study of Mus musculus with 48 samples.

Results

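The genes described here encode the subunits of the oxidative phosphorylation system of mouse liver and the assembly factors that share their names. Members were chosen by gene symbol, with no use of measured values: symbols beginning Ndufa, Ndufb, Ndufc, Ndufs or Ndufv, the symbols Sdha to Sdhd, those beginning Uqcr or Uqcc, Cox4 to Cox8 and Atp5, and the mitochondrially encoded mt-Nd, mt-Co, mt-Cytb and mt-Atp genes. This gave 100 of the 14251 genes in the count table, 92 encoded in the nucleus and 8 in mitochondrial DNA. The nuclear genes comprised 38 subunits and 8 Ndufaf assembly factors of complex I, 4 subunits of complex II, 8 subunits and 3 Uqcc assembly factors of complex III, 14 subunits of complex IV and 17 of complex V. The mitochondrial genes were mt-Nd1, mt-Nd2, mt-Nd3, mt-Nd4, mt-Nd5 and mt-Nd6 of complex I, mt-Cytb of complex III and mt-Co1 of complex IV. The members mt-Nd4l, mt-Co2, mt-Co3, mt-Atp6, mt-Atp8, Cox4i2 and Cox8b were not analysed here.

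Complexes I and II pass electrons from NADH and succinate to ubiquinone, complex III passes them to cytochrome c, and complex IV passes them to oxygen. Complexes I, III and IV pump protons across the inner mitochondrial membrane, and complex V, the ATP synthase, uses the gradient to make ATP. Complex II is wholly nuclear-encoded, whereas the other complexes join nuclear and mitochondrial subunits that are transcribed in separate compartments. In liver this system supplies the ATP used for gluconeogenesis and urea synthesis, and glucocorticoids such as corticosterone, the main glucocorticoid of mice, are known to drive gluconeogenesis.

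Libraries were made from the livers of male C57BL6J mice after 2 weeks of treatment, in 4 groups. The mice drank water with 100 ug/ml corticosterone or with its vehicle, 1% ethanol, and ate control food or food with atglistatin at 571 mg/kg, which blocks adipose triglyceride lipase (ATGL), the enzyme that starts the breakdown of stored triglyceride. There were 10 libraries for vehicle with control diet, 10 for vehicle with atglistatin, 14 for corticosterone with control diet and 14 for corticosterone with atglistatin. Of the corticosterone groups, 9 of 14 mice on control diet and 1 of 14 on atglistatin carried the label diabetic, so that comparisons of the diets within corticosterone also differ in this label. It left 5 nondiabetic mice on control diet and 13 on atglistatin, and counts are also given without the diabetic-labelled mice. Both agents were given to the whole animal, and the libraries are of whole liver tissue, in which fewer cells of a type and less RNA per cell cannot be told apart. The QuantSeq method counts reads from the 3′ ends of polyadenylated RNA. Levels below are CPM, counts scaled to a common library size by the trimmed mean of M values, changes are log2 ratios given as estimate ± standard error (SE), and a gene passed the test at an adjusted p of 0.05 or less in edgeR's two-sided quasi-likelihood test, with Benjamini-Hochberg adjustment over all 12688 genes tested. Nothing in the labels beyond separate sample entries says how the mice were housed or processed in batches, and each library was treated as 1 animal.

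Libraries held 7449109 to 21175603 counts. The mitochondrial members took 5.98% to 16.5% of the counts of a library and the nuclear members 1.82% to 2.82%. The defining hepatocyte markers were abundant in each group (summed median 96500.1 to 120790.2 CPM over the 7 of 8 listed genes analysed). A set of 9 of the 48 libraries stood apart: 1 of vehicle with control diet, 2 of vehicle with atglistatin, 3 of corticosterone with control diet and 3 of corticosterone with atglistatin. They were separated by a short-transcript index, the mean log2 level of 60 other nuclear genes whose longest coding transcript is at most 600 nt, which lay between 7.06 and 7.30 in these libraries and between 6.58 and 6.94 in the other 39. Among the other 39 the mean index was 6.81 for vehicle and 6.73 for corticosterone on control diet. On atglistatin it was 6.70 for vehicle and 6.75 for corticosterone. The gap between the 9 libraries and the other 39 was chosen after seeing the data, without the members. With this split added to the 4 groups as a term, 67 of 91 nuclear members were higher in the 9 libraries and 8 were lower, with a median log2 difference of 0.33, and all 8 mitochondrial members were higher, by 0.65 to 0.83. No share over all genes is given for this term. The libraries were split by levels of short transcripts, so these counts cannot be read as particular to the members. The nuclear members with the largest differences were Atp5md (0.94), Ndufb4 (0.88), Cox7b (0.88), Uqcc2 (0.86) and Atp5e (0.86), while Sdha (-0.33), Atp5a1 (-0.27), Uqcrc1 (-0.25) and Ndufs1 (-0.23) were among the lower ones. Nuclear members have short transcripts, with a median length of 913 nt (371 to 4715) against 3115 nt for 11625 tested genes, and the difference fell with length across the 91 members (Spearman's rho -0.46, a description across genes that share libraries). Mitochondrial ribosomal RNA (median 5.36% against 3.05% of counts) and summed red blood cell markers (median 2827 against 1504 CPM, all 5 of 5 listed genes above 0) were also higher in these 9 libraries. Their part in the results was not tested, and the counts of members, of each complex and of each gene list are given with and without these libraries.

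**Figure D1:**
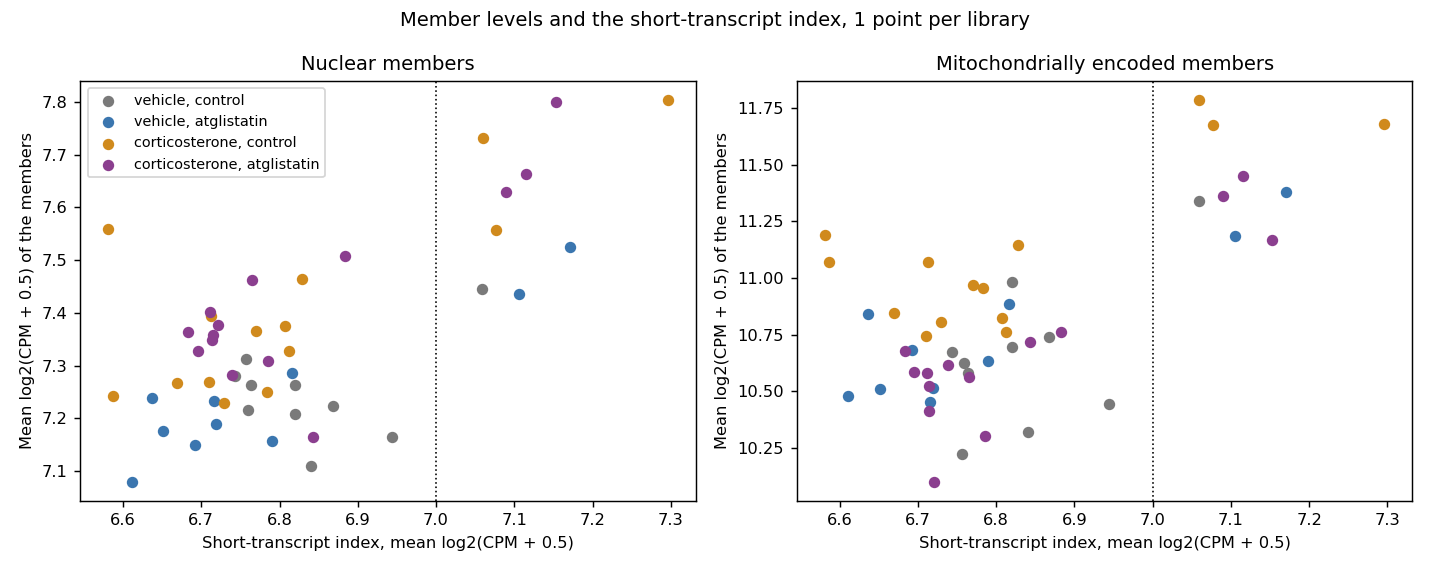
Mean log2 level of the nuclear members (86 with a mean above 5 CPM) and of the 8 mitochondrial members in each library, on the y axes, against the short-transcript index of that library, on the x axis. Each point is a library, coloured by group, and the dotted line marks an index of 7. The 9 libraries to the right of the line have nuclear means of 7.44 to 7.80 and mitochondrial means of 11.2 to 11.8.

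The first comparison asked how corticosterone changed the liver transcriptome of mice on control diet. Among the nuclear members the differences were small and mostly upward. Of the 91 nuclear members tested, 30 rose (33%) and 4 fell (4.4%), while 57 did not pass; over all genes tested, 22.5% rose and 21.7% fell. The median log2 change of the nuclear members was 0.15, against 0.01 over all genes, and 73 of 91 were positive, against 51.39% of all genes. None exceeded 1 on the log2 scale. Within groups 61.3% of the variance of 86 nuclear members lay on the first principal component, so that their signs are not independent. Without the 9 high-index libraries 23 nuclear members rose and 6 fell, with a median of 0.080, when 20.8% of all genes rose and 22.4% fell. Of the 30 that rose, 22 also rose without these libraries, and all 4 that fell did so again. Without the diabetic-labelled mice, which leaves 5 corticosterone libraries on this diet, 12 nuclear members rose and 4 fell, with a median of 0.073, when 12.4% of all genes rose and 15.3% fell. All 30 that rose kept their sign there, and 18 did not pass, among them Atp5c1, Atp5e, Atp5md, Cox8a, Ndufa4, Ndufa7, Ndufab1, Ndufaf2, Ndufb7, Ndufc1, Ndufs3, Ndufs5, Sdhd, Uqcc2, Uqcc3, Uqcrb and Uqcrc2. The 4 that fell were 2 without vehicle with control diet replicate 12, or without corticosterone with control diet replicate 27, 32, 33 or 36. Cpa1, a marker of exocrine pancreas, exceeded 20 CPM in 6 libraries. These were vehicle with control diet replicates 09, 10 and 15, vehicle with atglistatin replicates 06 and 11, and corticosterone with control diet replicate 30. Without these libraries, which were uneven between the groups compared, 16 rose and 2 fell (median 0.13), when 19.8% of all genes rose and 19% fell. All 30 kept their sign there too, and those that did not pass were Atp5c1, Atp5e, Atp5md, Cox6b2, Cox8a, Ndufa7, Ndufaf2, Ndufb3, Ndufc1, Ndufs3, Ndufs5, Uqcc2, Uqcrb and Uqcrc2 of the higher and Ndufs8 and Uqcr11 of the lower members.

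The same question was asked in mice on atglistatin, where 32 of 91 nuclear members rose (35.2%) and 0 fell, against 19% and 17.7% of all genes. At an unadjusted p under 0.05 there were 42 nuclear members in either direction, and DESeq2 and limma voom each found 1 lower. Shares over all genes at an unadjusted p are not given here or below, so such counts cannot be read as particular to the members. The median log2 change was 0.17, against 0.02 over all genes, and 78 of 91 were positive, against 52.25% of all genes. Without the high-index libraries 33 rose and 3 fell (median 0.12), when 15.4% of all genes rose and 18.2% fell, and 27 of the 32 that rose did so again. Leaving out vehicle with atglistatin replicate 12 gave 21 higher, and leaving out vehicle with atglistatin replicate 13, or corticosterone with atglistatin replicate 24 or 26, gave 18. In all, 23 nuclear members rose on both diets (25.3%, against 14.2% of all genes), 7 on control diet alone (7.69%, against 8.30%), 9 on atglistatin alone (9.89%, against 4.78%) and 52 on neither (57.1%, against 72.7%). The difference between the diets was tested by the interaction term, in which no member passed, so that a call on 1 diet alone is not a difference between diets.

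Other cell types moved with corticosterone. The summed lymphocyte and leukocyte markers (3 of 6 listed genes analysed, none at 0 in a whole group) spanned 27.1 to 71.3 CPM on vehicle and control diet and 1.58 to 7.09 CPM on corticosterone and control diet, and 23.4 to 64.5 against 2.0 to 8.36 CPM on atglistatin. The summed markers of Kupffer cells and macrophages (7 of 7 analysed) spanned 117 to 199 CPM on vehicle and 45.8 to 96.2 CPM on corticosterone with control diet, and 90.4 to 155 against 35.8 to 197 CPM with atglistatin. Hepatocyte markers spanned 74551 to 113473 CPM on vehicle and 96089 to 140727 CPM on corticosterone with control diet. The part of these shifts in the members' changes was not tested.

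**Figure D2:**
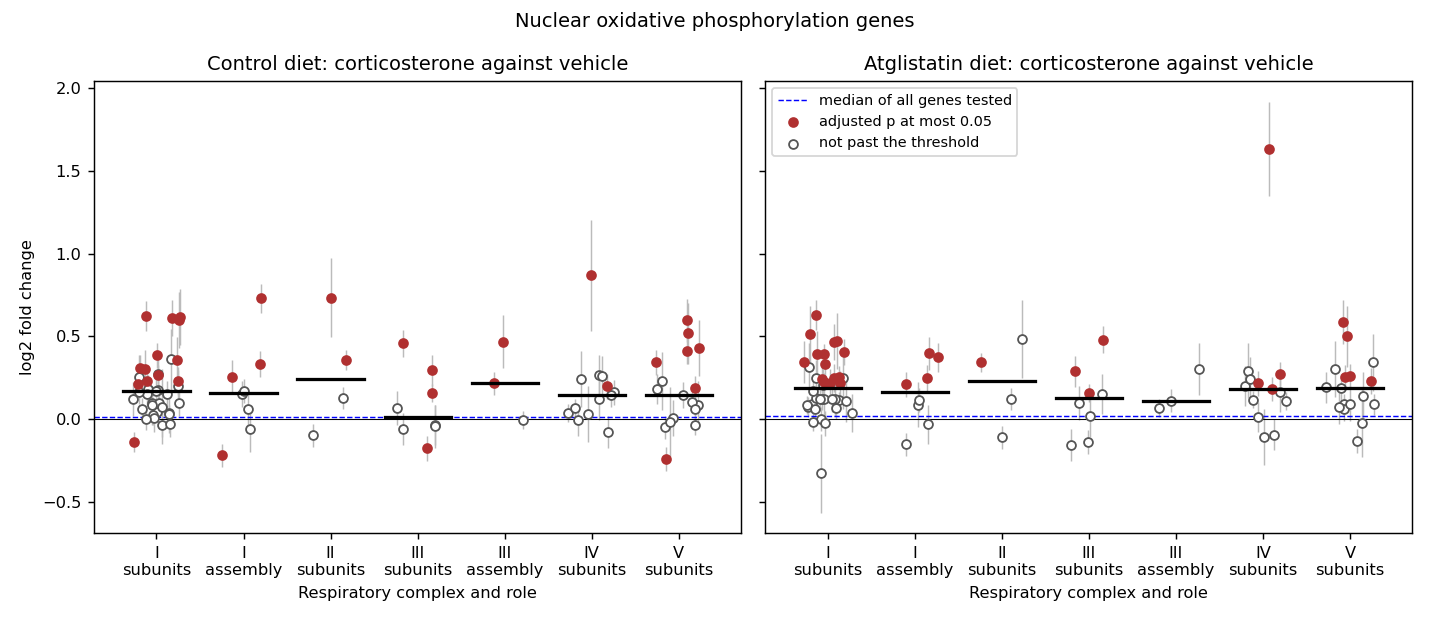
Log2 change by corticosterone of each nuclear member (y axis) on control diet and on atglistatin (panels), ordered by complex and by subunit or assembly factor on the x axis. Points are estimates with their SE, filled where the adjusted p was 0.05 or less, thick bars are the median of each set and the dashed line is the median of all genes. On control diet 30 filled points lie above 0 and 4 below, and on atglistatin 32 lie above and 0 below.

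Promoters of 4 members are shown, of which 3 rose on both diets and the fourth fell on control diet. Each printed window holds a motif match, so they do not represent the members that rose, several of which held none. The windows are 300 bases from RefSeq on GRCm38.p6, from 250 bases before to 50 bases after the transcript start. They run in the direction of the gene, with matches to 4 motifs in capitals. The motifs were GCGCANGCG for NRF1, CCGGAAG for ETS factors such as GABP, AAGGTCA for oestrogen-related receptors (ERR) and AANATGGC for YY1, all searched on both strands and all known from promoters of respiratory genes. The Ndufa8 window (chr2:36049289-36049588, minus strand) held matches to the NRF1 motif beginning 29 and 9 bases before the start. The Ndufaf4 window (chr4:24897833-24898132, plus strand) held the NRF1 motif on both strands at 1 overlapping place, from 113 bases before the start. The downstream of the 2 Atp5j windows (chr16:84834927-84835226, minus strand) held a YY1 match 88 bases and an ETS match 61 bases before the start. The upstream Atp5j window held no match and is not printed. The Atp5o window (chr16:91931581-91931880, minus strand) held an NRF1 match from base 11 of the transcript.
Ndufa8: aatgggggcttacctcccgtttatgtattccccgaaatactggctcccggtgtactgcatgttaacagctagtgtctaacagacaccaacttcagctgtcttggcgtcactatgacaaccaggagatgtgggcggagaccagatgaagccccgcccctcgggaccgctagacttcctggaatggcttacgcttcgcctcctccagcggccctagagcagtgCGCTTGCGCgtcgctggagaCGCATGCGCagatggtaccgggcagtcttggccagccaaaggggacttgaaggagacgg
Ndufaf4: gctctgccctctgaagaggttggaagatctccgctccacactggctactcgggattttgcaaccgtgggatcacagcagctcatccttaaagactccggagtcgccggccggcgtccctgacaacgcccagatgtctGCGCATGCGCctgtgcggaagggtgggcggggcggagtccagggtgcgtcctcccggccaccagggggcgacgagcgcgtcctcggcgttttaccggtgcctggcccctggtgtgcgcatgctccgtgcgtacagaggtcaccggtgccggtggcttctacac
Atp5j: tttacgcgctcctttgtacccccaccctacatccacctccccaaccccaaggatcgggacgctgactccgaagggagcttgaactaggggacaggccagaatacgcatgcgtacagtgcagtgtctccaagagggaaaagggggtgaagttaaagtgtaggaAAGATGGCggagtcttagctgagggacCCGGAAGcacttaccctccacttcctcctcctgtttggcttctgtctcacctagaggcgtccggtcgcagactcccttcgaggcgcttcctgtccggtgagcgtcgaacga
Atp5o: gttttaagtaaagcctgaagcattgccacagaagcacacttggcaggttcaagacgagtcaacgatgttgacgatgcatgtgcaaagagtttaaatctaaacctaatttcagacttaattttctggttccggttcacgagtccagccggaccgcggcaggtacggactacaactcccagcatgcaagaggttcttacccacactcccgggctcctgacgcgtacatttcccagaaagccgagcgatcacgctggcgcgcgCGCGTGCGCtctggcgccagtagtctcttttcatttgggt

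Windows were given for 77 of the 92 nuclear members by symbol. At least 1 of the 4 motifs lay in 67.5% of these and in 25.2% of all 27025 genes with a window. For NRF1 the shares were 29.9% of members and 7.03% of all genes, for YY1 26% and 6.96%, for ETS 24.7% and 9.93%, and for ERR 11.7% and 5.38%. At least 1 motif was found in 10 of 19 members that rose on both diets (52.6%), 11 of 16 that rose on 1 diet (68.8%) and 31 of 42 that rose on neither (73.8%). The NRF1 motif was found in 4, 3 and 16 of them. The last set includes Atp5o, Ndufs8, Ndufaf1 and Uqcr11, which fell on control diet. The windows of Uqcrfs1, Ndufa13, Ndufa1, Atp5d and Atp5g1 held none of these letters.

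Complex I is the entry point for electrons from NADH. Corticosterone raised 12 of its 38 nuclear subunits on control diet (median log2 change 0.17) and lowered 1, and raised 15 on atglistatin (median 0.19) and lowered 0. These are 31.6% and 39.5% higher, beside 22.5% and 19% of all genes. On control diet 11 rose and 1 fell (median 0.076) without the high-index libraries, 4 rose and 1 fell (median 0.075) without the diabetic-labelled mice and 7 rose and 0 fell (median 0.14) without the Cpa1-high libraries. On atglistatin 17 rose and 0 fell (median 0.11) without the high-index libraries. Ndufa8 (chr2:36036326-36049406, minus strand) encodes an accessory subunit on the intermembrane-space side of the membrane arm. Ndufa8 lay at 104 to 153 CPM (median 129) on vehicle and control diet and 103 to 168 CPM (median 128) on vehicle and atglistatin, against 156 to 279.5 CPM (median 193) on corticosterone and control diet and 157 to 290.2 CPM (median 200.1) on corticosterone and atglistatin. Each of the 14 corticosterone libraries on control diet lay above each vehicle library, and on atglistatin the groups overlapped between 157 and 168 CPM. The log2 change was 0.62 ± 0.093 (adjusted p = 2.5e-07, a 1.54-fold rise) on control diet and 0.63 ± 0.092 (adjusted p = 3.6e-07) on atglistatin by edgeR's quasi-likelihood test.

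Ndufa1 (chrX:37187588-37191163, minus strand) encodes a small membrane-arm subunit needed for assembly of the complex. Ndufa1 lay at 96.9 to 198 CPM (median 154) on vehicle and control diet and 121 to 213 CPM (median 142) on vehicle and atglistatin, against 167 to 333 CPM (median 222) on corticosterone and control diet and 162 to 303 CPM (median 193) on corticosterone and atglistatin. The groups on either diet overlapped through high-index libraries and not among the others. It rose by 0.61 ± 0.11 (adjusted p = 6.3e-06) and 0.47 ± 0.11 (adjusted p = 0.00051) by edgeR. Vehicle with control diet replicate 10 was the lowest library for this gene, at 96.9 CPM, and without it the first change was 0.54.

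Ndufa13, also known as GRIM-19, rose by 0.38 ± 0.077 on control diet (adjusted p = 5.5e-05) and 0.41 ± 0.077 on atglistatin (adjusted p = 3.7e-05) by edgeR. Ndufa13 lay at 205 to 278 CPM (median 218) on vehicle and control diet and 205 to 243 CPM (median 222) on vehicle and atglistatin, against 238 to 369 CPM (median 298) on corticosterone and control diet and 225 to 397 CPM (median 285) on corticosterone and atglistatin. All 14 corticosterone libraries of each diet lay above the median of their vehicle group, with some overlap. Its 3′ end lies within Yjefn3 on the same strand, so that reads of these genes could be shared. Ndufab1, the mitochondrial acyl carrier protein, which serves both complex I and mitochondrial fatty acid synthesis, rose by 0.26 ± 0.065 (adjusted p = 0.00085) and 0.39 ± 0.065 (adjusted p = 4.2e-06). Ndufab1 lay at 84.4 to 106 CPM (median 91.9) on vehicle and control diet and 79.3 to 113 CPM (median 91.7) on vehicle and atglistatin, against 94.5 to 144 CPM (median 112) on corticosterone and control diet and 106 to 152 CPM (median 118) on corticosterone and atglistatin. On atglistatin its vehicle and corticosterone libraries overlapped only through high-index libraries.

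Other complex I subunits that rose on both diets included the accessory subunits Ndufb7 (0.31 and 0.33), Ndufs5 (0.62 and 0.47) and Ndufc1 (0.21 and 0.25), of which Ndufc1 did not pass on control diet without the high-index libraries. Without the diabetic-labelled mice Ndufb7 (0.19, adjusted p = 0.088), Ndufs5 (0.52, adjusted p = 0.053) and Ndufc1 (0.11, adjusted p = 0.26) did not pass on control diet. Ndufa4, named as a complex I gene and now known as a complex IV subunit, rose by 0.60 ± 0.17 (adjusted p = 0.0031) and 0.51 ± 0.17 (adjusted p = 0.013) by edgeR. The counts by complex here follow the symbol, so that its calls count toward complex I and not toward complex IV. Ndufa4 lay at 132 to 298 CPM (median 200.05) on vehicle and control diet and 167 to 379.9 CPM (median 214) on vehicle and atglistatin, against 214 to 603 CPM (median 285) on corticosterone and control diet and 226 to 614 CPM (median 297) on corticosterone and atglistatin. Its spread within groups was wide, and it was also 0.84 higher in the high-index libraries. The call on atglistatin was lost without corticosterone with atglistatin replicate 24 (0.39, adjusted p = 0.0519). Its paralogue Ndufa4l2 was scarce, at 0.511 to 1.74 CPM (median 0.918) on vehicle and control diet, and did not pass for corticosterone on either diet (0.075 ± 0.23 and -0.33 ± 0.24).

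The core iron-sulfur subunit Ndufs8 was the complex I subunit that fell on control diet, with a log2 change of -0.14 ± 0.058 (adjusted p = 0.046 by edgeR). Its level was 101 to 117 CPM (median 111) on vehicle and 87 to 131 CPM (median 95) on corticosterone, with overlap. This call was lost without the Cpa1-high libraries (-0.11, adjusted p = 0.21). It was also lost without vehicle with control diet replicate 09, 11, 12, 15 or 16, vehicle with atglistatin replicate 06, or corticosterone with control diet replicate 27, 32, 33 or 36 (changes of -0.14 to -0.13, adjusted p = 0.0507 to 0.0746). On atglistatin its change was -0.018 ± 0.058 (adjusted p = 0.84).

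Among the 8 Ndufaf assembly factors of complex I, 3 rose (37.5%) and 1 fell (12.5%) on control diet, and 4 rose (50%) on atglistatin. Over all genes 22.5% rose and 21.7% fell on control diet, and 19% rose on atglistatin. Ndufaf4 (chr4:24898083-24905001, plus strand), an early assembly factor, had the smallest p of the nuclear members on control diet. Ndufaf4 lay at 37 to 48.3 CPM (median 42.1) on vehicle and control diet and 39.2 to 65.7 CPM (median 47.2) on vehicle and atglistatin, against 53 to 85.2 CPM (median 70.6) on corticosterone and control diet and 50.7 to 95 CPM (median 59.9) on corticosterone and atglistatin. Vehicle and corticosterone libraries on control diet did not overlap. The log2 change was 0.73 ± 0.088 (adjusted p = 1.9e-09) on control diet and 0.37 ± 0.087 (adjusted p = 0.00059) on atglistatin by edgeR; the difference between diets did not pass (interaction -0.36 ± 0.12, adjusted p = 0.15). Ndufaf3 rose by 0.33 and 0.25 and Ndufaf2 by 0.25 and 0.40; Ndufaf3 shares its 3′ end with Impdh2 on the opposite strand, and since the strand setting of the counting is not given, their reads cannot be told apart. Without the high-index libraries the call of Ndufaf2 was lost on control diet and that of Ndufaf3 on atglistatin. Ndufaf1, which acts in the assembly of the membrane arm, fell on control diet, with a log2 change of -0.22 ± 0.070 (adjusted p = 0.0088). Its level was 12 to 18.4 CPM (median 14.7) on vehicle and 10.5 to 15.9 CPM (median 12) on corticosterone, lower than the vehicle mean in 13 of 14 libraries. On atglistatin its change was -0.15 ± 0.070 (adjusted p = 0.077).

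Complex II, succinate dehydrogenase, belongs to both the respiratory chain and the tricarboxylic acid cycle. Of its 4 subunits, the membrane anchors Sdhc and Sdhd rose on control diet (50%, against 22.5% of all genes). On atglistatin Sdhc rose (25%, against 19% of all genes). The flavoprotein Sdha (-0.099 ± 0.070 and -0.11 ± 0.070) and the iron-sulfur subunit Sdhb (0.13 ± 0.066 and 0.12 ± 0.066) did not pass on either diet. Sdhc lay at 128 to 168 CPM (median 150.2) on vehicle and control diet and 133 to 166 CPM (median 149) on vehicle and atglistatin, against 161 to 243 CPM (median 187) on corticosterone and control diet and 173 to 214 CPM (median 187) on corticosterone and atglistatin. Sdhc (chr1:171127165-171150603, minus strand) changed by 0.35 ± 0.060 (adjusted p = 3.3e-06) on control diet and by 0.34 ± 0.060 (adjusted p = 1.1e-05) on atglistatin, where its vehicle and corticosterone libraries did not overlap. Sdhd varied widely within groups. Sdhd lay at 8.76 to 171 CPM (median 94) on vehicle and control diet and 46.7 to 192 CPM (median 128) on vehicle and atglistatin, against 119.8 to 284 CPM (median 157) on corticosterone and control diet and 99 to 253 CPM (median 177) on corticosterone and atglistatin. Its change was 0.73 ± 0.24 on control diet (adjusted p = 0.011 by edgeR) and 0.48 ± 0.24 on atglistatin (adjusted p = 0.11). The lowest library was vehicle with control diet replicate 10, without which the first change was 0.58, and without the high-index libraries it was 0.60 (adjusted p = 0.055).

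Complex III passes electrons from ubiquinol to cytochrome c. Of its 8 nuclear subunits, 3 rose and 1 fell on control diet (median log2 change 0.014), and 3 rose and 0 fell on atglistatin (median 0.12). The share higher was 37.5% on each diet, beside 22.5% and 19% of all genes. The balance on control diet depended on the libraries: 2 rose and 3 fell (median -0.061) without the high-index libraries, when Uqcr10 and Uqcrh also fell, 1 rose and 1 fell (median -0.062) without the diabetic-labelled mice and 1 rose and 0 fell (median -0.0058) without the Cpa1-high libraries. On atglistatin 2 rose and 1 fell (median 0.079) without the high-index libraries. Uqcrfs1 (chr13:30540308-30545362, minus strand) encodes the Rieske iron-sulfur protein. Uqcrfs1 lay at 152 to 235 CPM (median 199) on vehicle and control diet and 129 to 230.1 CPM (median 189.7) on vehicle and atglistatin, against 209 to 359 CPM (median 267) on corticosterone and control diet and 219 to 313 CPM (median 253) on corticosterone and atglistatin. All 14 corticosterone libraries lay above the vehicle median on each diet. The log2 change was 0.46 ± 0.083 (adjusted p = 1.0e-05) and 0.48 ± 0.083 (adjusted p = 7.7e-06) by edgeR. Uqcrb rose by 0.29 ± 0.093 (adjusted p = 0.0087) and 0.29 ± 0.093 (adjusted p = 0.013), from a median of 252 to 297 CPM on control diet and from 257 to 303 CPM on atglistatin. The call of Uqcrb on atglistatin was lost without vehicle with atglistatin replicate 13, or corticosterone with atglistatin replicate 26 (changes of 0.22 to 0.23, adjusted p = 0.0562 to 0.0585). The core subunit Uqcrc2 rose by 0.16 and 0.15, calls that were lost without the high-index libraries.

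Uqcr11, the smallest subunit of the complex, fell on control diet, with a log2 change of -0.18 ± 0.073 (adjusted p = 0.042 by edgeR). It lay at 171 to 239.6 CPM (median 184) on vehicle and 136 to 212 CPM (median 161) on corticosterone, and 12 of 14 corticosterone libraries lay under the vehicle mean. The call was lost without vehicle with control diet replicate 02 or 12, or corticosterone with control diet replicate 27, 28, 32, 33 or 36 (changes of -0.18 to -0.15, adjusted p = 0.051 to 0.0991). On atglistatin its change was -0.14 ± 0.073 (adjusted p = 0.12), and it was among the 3 members that fell there without the high-index libraries, with Atp5o and Sdha. Of the 3 Uqcc assembly factors, Uqcc2 (0.47) and Uqcc3 (0.22) rose on control diet (66.7%, against 22.5% of all genes). On atglistatin 0 passed, where 19% of all genes rose. Without the high-index libraries Uqcc3 did not pass on control diet (0.15, adjusted p = 0.10) and Uqcc2 rose on atglistatin (0.26, adjusted p = 0.0012), and without the diabetic-labelled mice neither passed on control diet (Uqcc2 0.32, adjusted p = 0.19; Uqcc3 0.15, adjusted p = 0.19).

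Complex IV is cytochrome c oxidase. On control diet 2 of its 13 tested nuclear subunits, Cox6b2 and Cox8a, rose (median log2 change 0.14), and on atglistatin 4 rose (median 0.18). The shares higher were 15.4% and 30.8%, beside 22.5% and 19% of all genes. On control diet 1 rose and 0 fell (median 0.070) without the high-index libraries, 1 rose and 0 fell (median 0.069) without the diabetic-labelled mice and 0 rose and 0 fell (median 0.13) without the Cpa1-high libraries. On atglistatin 5 rose and 0 fell (median 0.13) without the high-index libraries. Cox8a, the common form of subunit 8, rose by 0.20 ± 0.074 (adjusted p = 0.027) and 0.27 ± 0.074 (adjusted p = 0.0032) by edgeR. Cox8a lay at 208 to 299.9 CPM (median 276) on vehicle and control diet and 198 to 309.7 CPM (median 263) on vehicle and atglistatin, against 241 to 433 CPM (median 299.6) on corticosterone and control diet and 273 to 349 CPM (median 308) on corticosterone and atglistatin. On control diet the call was lost without the high-index libraries (0.16, adjusted p = 0.087) and on atglistatin it was kept (0.28, adjusted p = 0.0049). The control-diet call was also lost without vehicle with control diet replicate 09 or 12, or corticosterone with control diet replicate 34, 35 or 37 (changes of 0.14 to 0.17, adjusted p = 0.0651 to 0.101).

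The isoform pairs of complex IV differ in the tissues known for them. Cox6b2, known as the testis form of Cox6b, was at the edge of detection. Cox6b2 lay at 0.145 to 0.547 CPM (median 0.357) on vehicle and control diet and 0.263 to 0.593 CPM (median 0.456) on vehicle and atglistatin, against 0.192 to 1.31 CPM (median 0.605) on corticosterone and control diet and 0.486 to 3.12 CPM (median 1.34) on corticosterone and atglistatin. It rose by 0.87 ± 0.33 (adjusted p = 0.027) and 1.63 ± 0.29 (adjusted p = 7.5e-06), with every corticosterone library on atglistatin above its vehicle median. The call on control diet was lost without vehicle with control diet replicate 01, 10 or 12, or corticosterone with control diet replicate 33 (changes of 0.71 to 0.79, adjusted p = 0.0522 to 0.0714), and without the libraries with high Cpa1. The common form Cox6b1 did not pass on control diet (0.16 ± 0.076, adjusted p = 0.083) and rose on atglistatin (0.21 ± 0.076, adjusted p = 0.023), a call that was lost when scaling to nuclear genes only (0.19, adjusted p = 0.051) and without vehicle with control diet replicate 01, 03, 09 or 10, vehicle with atglistatin replicate 12, 13 or 14, corticosterone with control diet replicate 30, 34, 37, 45 or 49, or corticosterone with atglistatin replicate 13, 24 or 26 (changes of 0.16 to 0.19, adjusted p = 0.0506 to 0.101). Cox4i1, the common form of subunit 4, did not pass (-0.0088 ± 0.092 and 0.010 ± 0.092). Cox4i1 lay at 357 to 483 CPM (median 378) on vehicle and control diet and 349 to 522 CPM (median 384) on vehicle and atglistatin, against 321 to 571 CPM (median 354) on corticosterone and control diet and 311 to 556 CPM (median 382) on corticosterone and atglistatin. The 4 groups overlapped throughout.

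Of the Cox6a pair, the liver form Cox6a1 did not pass (0.064 ± 0.056 and 0.11 ± 0.056) and the heart and muscle form Cox6a2 was left out of the tests for low counts, with a group median of 0.0562 to 0.338 CPM and a highest library of 10.3 CPM in vehicle with control diet. Striated muscle markers (5 of 7 listed genes analysed) summed to at most 116 CPM in that group, with a median of 0.18 CPM. Of the Cox7a family, the heart and muscle form Cox7a1 (0.030 ± 0.17 and -0.11 ± 0.17), the liver form Cox7a2 (0.12 ± 0.13 and 0.24 ± 0.13) and the supercomplex factor Cox7a2l (-0.081 ± 0.095 and -0.096 ± 0.095) did not pass. The 95% intervals of these changes reach from -0.13 to 0.37 for Cox7a2 and from -0.27 to 0.11 for Cox7a2l on control diet.

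Complex V makes ATP from the proton gradient. On control diet 6 of its 17 members rose and 1 fell (median log2 change 0.14), and on atglistatin 5 rose and 0 fell (median 0.19). The shares higher were 35.3% and 29.4%, beside 22.5% and 19% of all genes. On control diet 5 rose and 1 fell (median 0.081) without the high-index libraries, 3 rose and 1 fell (median 0.041) without the diabetic-labelled mice and 3 rose and 1 fell (median 0.10) without the Cpa1-high libraries. On atglistatin 4 rose and 1 fell (median 0.13) without the high-index libraries. Atp5j (chr16:84827866-84835625, minus strand) encodes coupling factor 6 of the stalk. Atp5j lay at 81.5 to 197 CPM (median 127) on vehicle and control diet and 87.7 to 191 CPM (median 124) on vehicle and atglistatin, against 147 to 329 CPM (median 182) on corticosterone and control diet and 150.4 to 266 CPM (median 184) on corticosterone and atglistatin. All 14 corticosterone libraries of each diet lay above the vehicle median, with overlap at the edges. It rose by 0.60 ± 0.13 (adjusted p = 0.00021) and 0.59 ± 0.13 (adjusted p = 0.00036) by edgeR.

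Subunit c, which forms the membrane ring of the enzyme, is encoded by Atp5g1, Atp5g2 and Atp5g3 as the same mature protein. Atp5g1 rose by 0.41 ± 0.081 on control diet (adjusted p = 4.3e-05 by edgeR) and 0.23 ± 0.081 on atglistatin (adjusted p = 0.022), and the latter call was lost without the high-index libraries (0.13, adjusted p = 0.22) and without vehicle with atglistatin replicate 05 or 13, or corticosterone with atglistatin replicate 13, 24 or 26 (changes of 0.18 to 0.20, adjusted p = 0.0625 to 0.076). Atp5g1 lay at 81.1 to 114 CPM (median 97.6) on vehicle and control diet and 89.5 to 117 CPM (median 102) on vehicle and atglistatin, against 88.9 to 186 CPM (median 124) on corticosterone and control diet and 98.6 to 144 CPM (median 119) on corticosterone and atglistatin. Atp5g2 (-0.020 ± 0.21 and -0.027 ± 0.21) and Atp5g3 (-0.035 ± 0.063 and 0.089 ± 0.063) did not pass. The difference between these genes was not tested.

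In the catalytic head and central stalk, Atp5d (delta) rose by 0.34 ± 0.075 (adjusted p = 0.00020) and 0.25 ± 0.075 (adjusted p = 0.0066) and Atp5c1 (gamma) by 0.19 ± 0.072 (adjusted p = 0.028) and 0.26 ± 0.072 (adjusted p = 0.0037) by edgeR. Without the high-index libraries the Atp5d call was lost on atglistatin and the Atp5c1 call on control diet. The latter was also lost without vehicle with control diet replicate 01, 03, 09, 12 or 15, or corticosterone with control diet replicate 29, 34, 35, 37 or 45 (changes of 0.14 to 0.18, adjusted p = 0.0504 to 0.104). Atp5o (chr16:91925214-91931687, minus strand), the oligomycin sensitivity-conferring protein that joins the head to the outer stalk, fell on control diet. A further annotated gene of the same name and strand covers its 3′ end and was not among the genes analysed here, so that reads could be shared. Atp5o lay at 340.1 to 378 CPM (median 360.3) on vehicle and control diet and 308 to 438 CPM (median 352) on vehicle and atglistatin, against 249.9 to 395 CPM (median 298) on corticosterone and control diet and 270.4 to 421 CPM (median 315) on corticosterone and atglistatin. The change was -0.24 ± 0.073 (adjusted p = 0.0057 by edgeR), with levels lower than the vehicle mean in 12 of 14 libraries. Outside the high-index libraries its vehicle and corticosterone libraries did not overlap. On atglistatin the change was -0.13 ± 0.073 (adjusted p = 0.15).

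**Figure D3:**
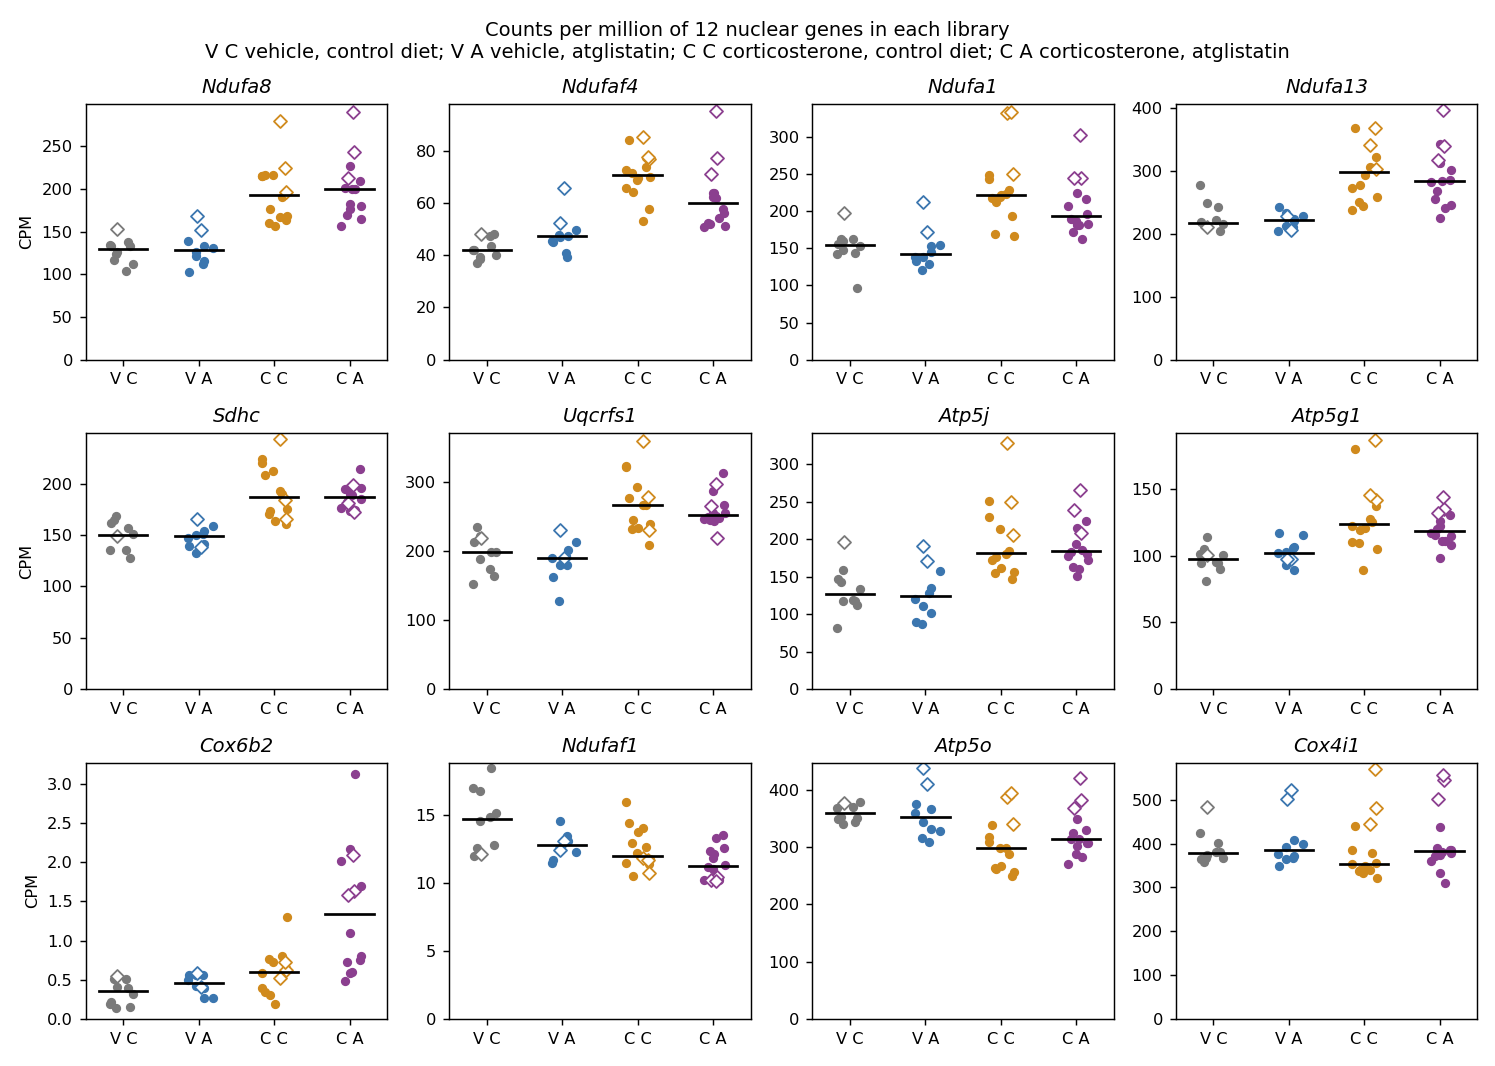
Level in CPM (y axis, from 0) in every library of 12 nuclear members, by group on the x axis. Points are libraries, open diamonds are the 9 high-index libraries and bars are group medians. Ndufa8 moves from a median of 129 CPM on vehicle to 193 CPM on corticosterone with control diet, Atp5o from 360.3 to 298 CPM.

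The mitochondrially encoded members supply core, proton-pumping or catalytic parts of their complexes. On control diet 3 of 8 rose with corticosterone and 0 fell, or 5 rose without vehicle with control diet replicate 02 (against 22.5% and 21.7% of all genes), with a median log2 change of 0.36 and all 8 positive. The same 3 rose without the high-index libraries, with a median of 0.22. On atglistatin 1 rose and 1 fell (against 19% and 17.7%), with a median of -0.10. All 8 are encoded on chrM, 7 on the heavy-strand transcript and mt-Nd6 on the light strand, and share long precursor transcripts, so that their values are not independent. The human counterpart of mt-Nd6 is known to lack a regular poly(A) tail, and the libraries were primed at poly(A).

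The complex I subunit gene mt-Nd1 (chrM:2751-3707) rose on control diet. mt-Nd1 lay at 9049 to 18290.4 CPM (median 11800.0) on vehicle and control diet and 8674 to 19304 CPM (median 11574) on vehicle and atglistatin, against 13531 to 27928 CPM (median 16013) on corticosterone and control diet and 9444 to 20990.0 CPM (median 12318) on corticosterone and atglistatin. On control diet the groups overlapped only through the high-index vehicle library. The log2 change was 0.55 ± 0.15 (adjusted p = 0.0022 by edgeR) on control diet and 0.055 ± 0.15 (adjusted p = 0.80) on atglistatin. mt-Nd5 (chrM:11742-13565) rose by 0.59 ± 0.16 (adjusted p = 0.0021) on control diet and changed by 0.11 ± 0.16 (adjusted p = 0.61) on atglistatin. mt-Nd5 lay at 1094 to 2867 CPM (median 1694) on vehicle and control diet and 1200.2 to 2615 CPM (median 1535) on vehicle and atglistatin, against 1858 to 4180.0 CPM (median 2235) on corticosterone and control diet and 1225 to 2809 CPM (median 1611) on corticosterone and atglistatin. The highest values of each group were those of its high-index libraries. Without the mice labelled diabetic, mt-Nd1 (0.44, adjusted p = 0.074) and mt-Nd5 (0.48, adjusted p = 0.067) did not pass on control diet.

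The shortest of these genes, mt-Nd3 (chrM:9459-9806), had the largest change of the 8 on control diet, at low counts. mt-Nd3 lay at 1.11 to 17.7 CPM (median 12.8) on vehicle and control diet and 6.22 to 30.2 CPM (median 13) on vehicle and atglistatin, against 18.8 to 53.6 CPM (median 25.1) on corticosterone and control diet and 10.8 to 43.5 CPM (median 20.8) on corticosterone and atglistatin. The libraries of vehicle and corticosterone with control diet did not overlap. It rose by 1.26 ± 0.26 (adjusted p = 9.9e-05 by edgeR) on control diet, or by 1.11 without vehicle replicate 10, its lowest library. On atglistatin it rose by 0.67 ± 0.26 (adjusted p = 0.036), a call that was lost without the high-index libraries (0.53, adjusted p = 0.095). It was also lost without vehicle with atglistatin replicate 05, 08, 09, 10 or 13, or corticosterone with atglistatin replicate 13, 24, 26, 40 or 41 (changes of 0.54 to 0.64, adjusted p = 0.0515 to 0.0928).

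Cytochrome b of complex III (mt-Cytb, chrM:14145-15288) and the catalytic subunit of complex IV (mt-Co1, chrM:5328-6872) did not pass with corticosterone on either diet. mt-Cytb lay at 9523 to 28218 CPM (median 15884) on vehicle and control diet and 11418 to 28570.0 CPM (median 15123) on vehicle and atglistatin, against 13422 to 32352 CPM (median 18292) on corticosterone and control diet and 7309.6 to 28085 CPM (median 14355) on corticosterone and atglistatin. mt-Co1 lay at 1132 to 2394 CPM (median 1361) on vehicle and control diet and 1235 to 2324 CPM (median 1477) on vehicle and atglistatin, against 1300.5 to 3142 CPM (median 1712) on corticosterone and control diet and 1003 to 2168 CPM (median 1297) on corticosterone and atglistatin. Their changes were 0.24 ± 0.18 and 0.34 ± 0.15 on control diet and -0.19 ± 0.18 and -0.17 ± 0.15 on atglistatin. mt-Nd2 (chrM:3914-4951; 0.37 ± 0.17 and -0.037 ± 0.17) and mt-Nd4 (chrM:10167-11544; 0.21 ± 0.16 and -0.21 ± 0.16) did not pass either. mt-Nd2 lay at 10186 to 29373 CPM (median 17796) on vehicle and control diet and 13957 to 31609 CPM (median 18067) on vehicle and atglistatin, against 14730.1 to 37183 CPM (median 21918) on corticosterone and control diet and 13355 to 35039 CPM (median 16113) on corticosterone and atglistatin. mt-Nd4 lay at 29332 to 71959 CPM (median 50445) on vehicle and control diet and 33304 to 80381 CPM (median 44550.3) on vehicle and atglistatin, against 41903 to 86104 CPM (median 52540.3) on corticosterone and control diet and 26411 to 69580.3 CPM (median 39669.5) on corticosterone and atglistatin. In these genes too the groups overlapped.

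The light-strand gene mt-Nd6 (chrM:13552-14070) fell with corticosterone on atglistatin. mt-Nd6 lay at 8.34 to 14.5 CPM (median 9.92) on vehicle and control diet and 8.37 to 21 CPM (median 14.2) on vehicle and atglistatin, against 5.99 to 21 CPM (median 9.53) on corticosterone and control diet and 4.48 to 17.1 CPM (median 7.47) on corticosterone and atglistatin. The log2 change there was -0.66 ± 0.19 (adjusted p = 0.0051 by edgeR), with levels lower than the vehicle mean in 13 of 14 libraries. The change was -0.88 without the high-index libraries, when mt-Co1 fell too. On control diet its change was 0.0017 ± 0.20 (adjusted p = 0.9953). The 3′ ends of mt-Nd5 and mt-Nd6 overlap on opposite strands, and that of mt-Co1 overlaps the transfer RNA gene mt-Ts1 on the opposite strand. Without strand the reads of these genes cannot be fully told apart. The 3′ ends of mt-Nd1 and mt-Nd2 overlap transfer RNA genes on the same strand, which strand would not separate.

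**Figure D4:**
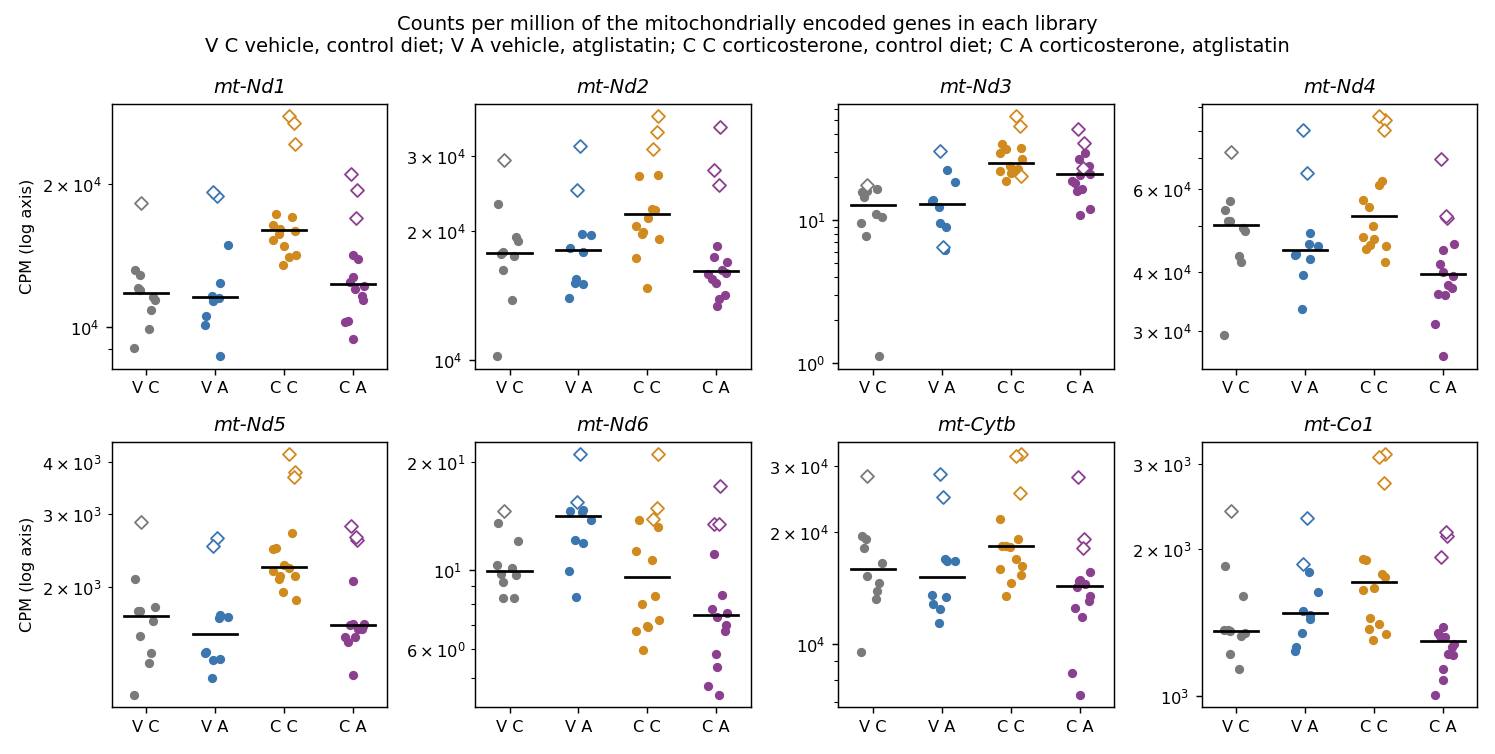
Level in CPM (y axis, log scale) of the 8 mitochondrial members in every library, by group on the x axis. Points are libraries, open diamonds are the 9 high-index libraries and bars are group medians. mt-Nd1 has a median of 16013 CPM on corticosterone with control diet and 11574 to 12318 CPM in the other 3 groups.

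Atglistatin was compared with control diet on vehicle, in which 1.47% of all genes rose and 1.66% fell. No member passed. At an unadjusted p under 0.05 there was 1 nuclear member and 0 mitochondrial members, and DESeq2 and limma voom each found 0. The log2 changes of nuclear members ranged from -0.34 to 0.41, with a median of -0.0058 and a median SE of 0.090, and those of mitochondrial members from -0.033 to 0.36.

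On corticosterone, atglistatin raised 5.19% and lowered 6.47% of all genes. Among nuclear members 1 rose and 1 fell, with a median change of 0.0077. Cox6b2 rose by 1.17 ± 0.25 (adjusted p = 0.00065 by edgeR) over the levels given above, and did not pass without the diabetic-labelled mice (0.84, adjusted p = 0.18). Ndufa4l2, known as a hypoxia-induced gene, fell (-0.74 ± 0.21, adjusted p = 0.015). Its level was 0.270 to 1.81 CPM (median 0.932) on control diet and 0.181 to 0.939 CPM (median 0.599) on atglistatin. The groups of both genes overlapped at these low levels, and Ndufa4l2 shares its 3′ end with Shmt2 on the opposite strand.

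The mitochondrial members were lower on atglistatin among corticosterone mice: all 8 changes were negative, between -0.50 and -0.30 with a median of -0.42, and 4 fell. These were mt-Nd5 (-0.50 ± 0.14, adjusted p = 0.014), mt-Nd4 (-0.46 ± 0.15, adjusted p = 0.033), mt-Co1 (-0.42 ± 0.14, adjusted p = 0.035) and mt-Nd1 (-0.41 ± 0.14, adjusted p = 0.040) by edgeR. The ratio of summed mitochondrial to summed nuclear member CPM was 4.61 to 7.43 (median 5.30) on corticosterone with control diet and 2.76 to 5.62 (median 3.99) on corticosterone with atglistatin, against medians of 5.16 and 4.81 in the vehicle groups. The calls were close to the threshold. Without corticosterone with control diet replicate 29, 35 or 50, or corticosterone with atglistatin replicate 48, 1 passed, and without corticosterone with atglistatin replicate 14, 23, 25 or 47, 2 passed. The call of mt-Nd1 was also lost without corticosterone with atglistatin replicate 18, 38 or 42, and over the single libraries that ended a call the changes were -0.40 to -0.35 for mt-Nd1, -0.42 to -0.36 for mt-Co1 and -0.44 to -0.41 for mt-Nd4. Without the high-index libraries 6 fell, with a median of -0.42, when 6.61% of all genes fell. Without the mice labelled diabetic 0 passed and the median was -0.38, when 2.21% of all genes fell.

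No member passed the interaction of corticosterone and atglistatin, which 1.43% of all genes did in either direction. At an unadjusted p under 0.05 there were 1 nuclear and 4 mitochondrial members, DESeq2 found 0 and limma voom found 1 nuclear member. The share of 1.43% is at the adjusted threshold and is no measure for the unadjusted counts. All 8 mitochondrial interaction estimates were negative, with a median of -0.49 and a median SE of 0.23, so that a difference between diets in the corticosterone change of these genes was not shown at the threshold. Without the high-index libraries mt-Co1 passed, along with 1 nuclear member higher and 1 lower.

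Within corticosterone on control diet, the 9 libraries of mice labelled diabetic were compared with the 5 labelled nondiabetic. The label is not a strict split by fed glucose. Nondiabetic-labelled replicate 36 of this group had a higher value than corticosterone with atglistatin replicate 26, which was labelled diabetic. Over the 12003 genes tested, 0% passed, and no member did. At an unadjusted p under 0.05 there were 0 nuclear and 0 mitochondrial members, and DESeq2 found 0. The median log2 difference of the nuclear members was 0.10, with a median SE of 0.13 and 82 of 90 positive, against 49.79% of all genes. The signs of these members are not independent, as given above. The median difference of the mitochondrial members was 0.088.

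Genes that act beside the subunits were examined by 7 fixed lists, whose shares stand beside 22.5% higher and 21.7% lower over all genes on control diet and 19% and 17.7% on atglistatin. Of 15 tested regulators of respiratory gene expression, 1 rose (6.67%) and 2 fell with corticosterone on control diet and 2 rose (13.3%) and 3 fell on atglistatin. On control diet 2 rose and 2 fell without the high-index libraries, and on atglistatin 1 rose and 3 fell without the high-index libraries. Esrra, the oestrogen-related receptor that drives many respiratory genes, rose (0.78 ± 0.11 and 0.63 ± 0.11; adjusted p = 1.4e-07 and 1.2e-05 by edgeR). Ppara, the receptor that drives fatty acid oxidation genes, fell (-0.82 ± 0.13 and -0.51 ± 0.13), and was higher on atglistatin among corticosterone mice (0.58 ± 0.12, adjusted p = 0.00079). Sirt1, a deacetylase, fell on control diet (-0.29 ± 0.10), and the coactivator Ppargc1b (-0.90 ± 0.17) and the receptor Esrrg (-1.02 ± 0.33) fell on atglistatin.

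Of 26 genes for the expression of mitochondrial DNA, 8 rose (30.8%) and 1 fell on control diet and 4 rose (15.4%) and 0 fell on atglistatin. On control diet 7 rose and 1 fell without the high-index libraries and 1 rose and 0 fell without the diabetic-labelled mice, and on atglistatin 5 rose and 1 fell without the high-index libraries. The transcription factor Tfb2m rose on both (0.40 ± 0.11 and 0.43 ± 0.11), and Fastkd1 (0.54 ± 0.14), Mterf3 (0.52 ± 0.15) and the elongation factor Tefm (0.42 ± 0.13) rose on control diet. Without the diabetic-labelled mice Tfb2m, Fastkd1 and Mterf3 did not pass there. Of 77 mitochondrial ribosomal proteins, 21 rose (27.3%) and 4 fell on control diet and 28 rose (36.4%) and 2 fell on atglistatin. On control diet 16 rose and 12 fell without the high-index libraries and 8 rose and 5 fell without the diabetic-labelled mice, and on atglistatin 28 rose and 2 fell without the high-index libraries, where 76 were tested, and 78 were tested without the diabetic-labelled mice. The median change was 0.058 and 0.13, or 0.00043 and 0.093 without the high-index libraries.

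Of 36 assembly factors outside the symbol rule, 11 rose (30.6%) and 0 fell on control diet and 13 rose (36.1%) and 1 fell on atglistatin. On control diet 11 rose and 1 fell without the high-index libraries and 3 rose and 0 fell without the diabetic-labelled mice, and on atglistatin 12 rose and 1 fell without the high-index libraries. The copper-handling complex IV factor Coa6 rose most by p (1.72 ± 0.16 and 1.16 ± 0.16; adjusted p = 3.6e-12 and 8.7e-08), followed by Coa5 (0.37 ± 0.046 and 0.28 ± 0.045), the complex I iron-sulfur factor Nubpl (0.55 ± 0.10 and 0.37 ± 0.10) and Cox18 (0.24 ± 0.062 and 0.26 ± 0.061), which did not pass on control diet without the diabetic-labelled mice. Of 29 electron carriers and other respiratory genes, 10 rose (34.5%) and 3 fell on control diet and 13 rose (44.8%) and 4 fell on atglistatin. On control diet 8 rose and 5 fell without the high-index libraries and 4 rose and 4 fell without the diabetic-labelled mice, and on atglistatin 10 rose and 3 fell without the high-index libraries. The ADP/ATP carrier Slc25a5 rose (0.56 ± 0.072 and 0.40 ± 0.071), as did Etfdh, which passes electrons from fatty acid oxidation to ubiquinone, on control diet (0.45 ± 0.087). Coq8b (-0.83 ± 0.13 and -0.78 ± 0.13) and Coq8a (-0.73 ± 0.12 and -0.49 ± 0.12), which act in ubiquinone synthesis, fell.

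Of 18 genes of the tricarboxylic acid cycle and pyruvate dehydrogenase, 9 rose (50.0%) and 1 fell on control diet and 8 rose (44.4%) and 2 fell on atglistatin. On control diet 9 rose and 1 fell without the high-index libraries and 6 rose and 1 fell without the diabetic-labelled mice, and on atglistatin 6 rose and 2 fell without the high-index libraries. The pyruvate dehydrogenase subunits Pdhb (0.94 ± 0.10 and 0.57 ± 0.10), Pdha1 (0.56 ± 0.063 and 0.40 ± 0.063) and Pdhx (0.84 ± 0.12 and 0.51 ± 0.12) rose on both diets. Among corticosterone mice 3 genes of this list fell on atglistatin, Idh2 (-0.28 ± 0.072), Suclg2 (-0.29 ± 0.081) and Pdhb (-0.30 ± 0.090), none of which passed without the diabetic-labelled mice. Of 16 genes of mitochondrial dynamics and turnover, 5 rose (31.2%) and 0 fell on control diet and 2 rose (12.5%) and 1 fell on atglistatin. On control diet 4 rose and 0 fell without the high-index libraries and 1 rose and 0 fell without the diabetic-labelled mice, and on atglistatin 2 rose and 1 fell without the high-index libraries. The mitophagy receptor Bnip3 rose on both diets (1.10 ± 0.12 and 0.61 ± 0.12).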

How the data were processed

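Poly(A)-primed QuantSeq 3′ libraries of mouse liver RNA were sequenced as 50-base forward reads, per the labels' protocols. The authors deposited 1 table of whole-number counts per gene and 1 table of the same counts divided by library size factors (a normalized signal), which a check reproduced from the counts; the signal was not tested. DESeq2 1.24.0, R 3.6 and GRCm38 are named in the submitters' processing notes, and no source used here gives the aligner, counter or strand setting. Counts were fitted with edgeR 4.0.16 (quasi-likelihood test, scaling by trimmed mean of M values) in R 4.3.3 after filterByExpr (minimum count 10, minimum total 15), with the 4 groups in 1 model, p-values adjusted over all genes tested and a threshold of 0.05. The diabetic label was tested within corticosterone and control diet. SE is the log2 change divided by the square root of F. A gene's 95% interval uses 1.96 SE. The scripts were tested on simulated data. With 7449109 to 21175603 counts per library, counting error is small for members above 5 CPM, and larger for Cox6b2, Cox6a2 and Ndufa4l2.

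Named with values were all mitochondrial members, up to 2 called members per complex and direction and up to 6 overall with the smallest p, fixed isoform sets, and up to 4 genes of each list. The complex I subunits Ndufb7, Ndufs5 and Ndufc1, the assembly factors Ndufaf2, Ndufaf3, Uqcc2 and Uqcc3, and Sdha, Sdhb, Uqcrc2 and Cox6b1 in complexes II to IV were named after their values were seen. Members and lists were chosen with earlier results of these data known. Values of some single genes are not reported here. The diabetic-label fit tested 90 nuclear members; Cox6a2 was left out of every fit by the filter. Libraries of a group differed beyond counting noise, with a chi-square of at least 6.21 per degree of freedom for each pair. Alternatives were DESeq2 1.42.0, limma 3.58.1 voom with weights per sample, RLE size factors in edgeR, all genes with no filter, scaling to nuclear genes, fits of only the 2 groups compared, and fits without diabetic-labelled mice, without libraries with Cpa1 above 20 CPM and without each library in turn. Those on the short-transcript index (60 nuclear genes that are no members, transcripts of at most 600 nt, mean above 5 CPM, 0.5 added before log2, threshold 7) were added after seeing the data. Transcript lengths and overlaps come from GENCODE annotation of GRCm38. Promoter windows come from RefSeq on GRCm38.p6. Nothing in the labels names a sequencing batch. P-values set a difference between groups against the spread between these libraries. Spread between cages or batches was not assessed.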

Additional observations from a re-analysis of the deposited data

Results flagged for a closer look

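Of 80 sets of 10 vehicle libraries examined for 1 library far from the rest, 13 were marked; chance alone marks about 1 in 20. In 9 of the 13 the far library was vehicle with control diet replicate 02, which is the high-index library of that group. It had a summed nuclear member level of 23836 CPM (group median 20016, next library 20688). It was also the highest for Atp5c1 (218 CPM), Cox4i1 (483 CPM), Cox6b1 (389.6 CPM), Cox7a2 (753 CPM), Uqcr11 (239.6 CPM), Uqcrb (347 CPM), mt-Cytb (28218 CPM) and mt-Nd1 (18290.4 CPM). Vehicle with atglistatin replicate 05, another high-index library, stood apart for Ndufaf4 (65.7 CPM against a group median of 47.2) and for the scarce muscle form Cox6a2 (2.82 CPM against 0.128). Cox6a2 was also far above its group in vehicle with control diet replicate 16 (10.3 CPM against 0.338), and Cox7a2l in replicate 12 of the same group (72.6 CPM against 46.2).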

How the results depend on the processing

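The counts in this section stand without shares over all genes, so a change in them cannot be read as particular to the members. Main counts are given first. For corticosterone on control diet (30 nuclear higher, 4 lower, 3 mitochondrial higher), the index as a covariate gave 48 nuclear and 5 mitochondrial higher, the index split as a term 5 mitochondrial higher, fits without diabetic-labelled mice 12 and 1, and fits without high Cpa1 16 higher and 2 lower. For corticosterone on atglistatin (32 nuclear higher, 0 lower, mitochondrial 1 higher and 1 lower), RLE, DESeq2, voom, no filter, nuclear scaling and fits of 2 groups gave 1 nuclear lower. Without diabetic-labelled mice 2 nuclear were lower and 0 mitochondrial higher, without the high-index libraries 3, 0 and 2 mitochondrial lower, with the index as a covariate 2 nuclear and 2 mitochondrial lower, and with the split 49 nuclear higher, 2 lower and 2 mitochondrial lower. For atglistatin on vehicle (0), the covariate gave 1 nuclear lower. For atglistatin on corticosterone (nuclear 1 higher and 1 lower, mitochondrial 4 lower), voom gave 2 and 3, fits without the high-index libraries 3 and 3, the covariate 3 and 4, and the split 4 and 3 nuclear; fits of 2 groups gave 2 mitochondrial lower, and fits without diabetic-labelled mice 0 nuclear higher and 0 mitochondrial lower. For the interaction (0), voom gave 1 nuclear lower, the covariate 1 nuclear and 4 mitochondrial lower, the split 1 higher, 1 lower and 2 mitochondrial lower, and fits without the high-index libraries 1, 1 and 1. The cause was not tested. Fewer samples enter the fits without libraries. Other counts stayed within 1.5 times, and none of the 77 called member results changed sign outside the fits on shared numbers, where 1 did.

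Leaving out each library in turn gave, on control diet, 22 to 34 nuclear higher, 2 to 4 lower and 3 to 5 mitochondrial higher; on atglistatin 18 to 40, 0 to 2, mitochondrial 0 to 1 higher and 1 to 1 lower; for atglistatin on corticosterone 1 to 2 nuclear higher, 1 to 2 lower and 1 to 5 mitochondrial lower; for the interaction 0 to 1 nuclear lower; and 0 to 0 in the other comparisons.

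Replicate numbers 09 to 12 occur in both vehicle groups and 13 and 14 in both atglistatin groups, but same-numbered libraries did not deviate together (correlations of at most 0.0010, none best with its own number). On these few libraries, corticosterone on atglistatin with the replicate block gave 0 nuclear higher, 0 mitochondrial higher and 0 lower, and without the block 1, 0 and 0; mt-Nd6 then changed by 0.039 with the block and 0.066 without. With and without the block, atglistatin on vehicle gave 0. Precision is limited by depth for members under about 1 CPM (Cox6b2, Ndufa4l2).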
